A study of Mus musculus with 6 samples.

Results

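The genes described here are 10 genes of the crypt base and of the Wnt feedback loop, namely Lgr5, Lgr4, Smoc2, Axin2, Rnf43, Znrf3, Lrig1, Prom1, Ephb2 and Ephb3. They were chosen by name for their roles in the crypt and the Wnt pathway, and all 10 were found among the 55341 gene symbols of the GENCODE M21 annotation of GRCm38/mm10, of which 21924 are protein-coding. For each gene, every annotated transcript start was given a promoter of 1000 bp on each side, and these promoters were compared with the 4 deposited peak lists. A peak was counted as present when it covered at least 1 bp of any promoter of the gene.

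The lists came from ChIP-seq of colonic epithelial organoids from C57BL/6 wild-type mice. One group had no TNFα (wt), the other group, wt+TNFα, received it at 40 ng/ml over 3 weeks, and the comparison addresses whether histone marks differ after long exposure to this inflammatory cytokine. Each condition had 1 library for H3K4me3, 1 for H3K27me3 and 1 input. There are thus no replicates, no difference below has an error or a p-value, and differences between single libraries cannot be told apart from differences between the conditions. By the study's methods, wt organoid medium contains L-WRN conditioned medium, which supplies Wnt3a, R-spondin 3 and Noggin, and a CHIR compound that inhibits GSK3. If this medium was used for both groups, as no source states otherwise, the Wnt pathway was stimulated from outside in both.

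In the crypt, Wnt ligands bind Frizzled and Lrp receptors, β-catenin is stabilised and target genes are transcribed with Tcf factors. Rnf43 and Znrf3 are membrane ubiquitin ligases that remove Frizzled from the surface, and R-spondins, bound by Lgr4 and Lgr5, take these ligases out of action. Axin2 is a scaffold of the complex that degrades β-catenin, and because it is itself a Wnt target it closes a negative feedback loop. H3K4me3 is a histone mark found at the starts of active or poised genes, whereas H3K27me3 is laid down by Polycomb repressive complex and is associated with silent genes. Promoters that carry both are called bivalent.

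The wt lists held 11552 H3K4me3 and 30594 H3K27me3 peaks, the wt+TNFα lists 11894 and 60540. Autosomal H3K27me3 extended over 101 Mb without TNFα and over 228 Mb with it, so a wider H3K27me3 peak in wt+TNFα was common across the genome. The lowest −log10 q was 0.302 in the wt H3K27me3 list and 0.747 in that of wt+TNFα, so these lists did not end at the same cut-off. The name of the wt H3K27me3 list mentions a spike-in and that of wt+TNFα does not. The methods describe one pipeline for all libraries, but whether a spike-in step was applied to both lists is not given in the sources used here, and its part in differences of H3K27me3 width and coverage was not tested. All 10 genes are autosomal. All 12 genes taken as markers of colonic epithelium had promoter H3K4me3 in wt, and 11 of the 12 did in wt+TNFα, where Krt20, a keratin of differentiated colonocytes, had none. Its wt peaks were weak, with −log10 q of 12.1 and 14.7 against a median of 161 in that list. Of 13 genes that mark immune, endothelial, mesenchymal or neural cells, 0 had H3K4me3 in either condition.

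Promoter sequence was at hand for 7 of the 10 genes, as 9 windows of 300 bases from RefSeq (GRCm38.p6) that run from 250 bases before a start to 50 bases after it. Lgr5, Smoc2 and Znrf3 had no entry. The 250 bases before the start are printed 5′ to 3′ for 3 promoters that lay under H3K4me3 in both conditions and for 2 internal promoters of marked genes that had no peak, to show how far these promoters differ in CpG content. CpG dinucleotides are in capitals.
Axin2, chr11:108920099-108920348, plus strand, under H3K4me3: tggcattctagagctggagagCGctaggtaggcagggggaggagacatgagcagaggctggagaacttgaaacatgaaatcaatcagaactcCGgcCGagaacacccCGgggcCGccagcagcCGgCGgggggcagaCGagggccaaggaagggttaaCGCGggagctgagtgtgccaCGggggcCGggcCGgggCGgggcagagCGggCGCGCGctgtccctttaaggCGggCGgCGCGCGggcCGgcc
Lgr4, chr2:109917397-109917646, plus strand, under H3K4me3: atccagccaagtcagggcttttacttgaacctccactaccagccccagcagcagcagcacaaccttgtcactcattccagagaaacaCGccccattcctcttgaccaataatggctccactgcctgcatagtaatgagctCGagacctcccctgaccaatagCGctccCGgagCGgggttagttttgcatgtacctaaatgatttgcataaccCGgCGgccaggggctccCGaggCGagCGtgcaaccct
Ephb2, chr4:136836013-136836262, minus strand, under H3K4me3: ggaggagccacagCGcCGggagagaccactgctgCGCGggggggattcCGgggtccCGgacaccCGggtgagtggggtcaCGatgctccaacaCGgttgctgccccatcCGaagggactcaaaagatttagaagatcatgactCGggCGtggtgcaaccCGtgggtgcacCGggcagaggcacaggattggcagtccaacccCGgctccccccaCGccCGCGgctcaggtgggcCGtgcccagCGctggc
Rnf43 internal, chr11:87699647-87699896, plus strand, no peak: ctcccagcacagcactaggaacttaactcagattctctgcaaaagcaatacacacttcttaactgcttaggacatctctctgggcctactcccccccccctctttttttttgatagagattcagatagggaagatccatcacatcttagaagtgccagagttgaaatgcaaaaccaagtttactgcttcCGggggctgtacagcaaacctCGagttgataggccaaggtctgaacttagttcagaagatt
Prom1 internal, chr5:44094769-44095018, minus strand, no peak: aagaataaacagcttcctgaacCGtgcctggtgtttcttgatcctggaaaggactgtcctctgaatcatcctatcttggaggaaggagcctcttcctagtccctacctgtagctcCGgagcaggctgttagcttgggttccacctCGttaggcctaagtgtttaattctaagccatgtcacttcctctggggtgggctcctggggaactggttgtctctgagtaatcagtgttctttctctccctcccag
The printed stretches held 24 CpG at Axin2, 10 at Lgr4 and 20 at Ephb2, against 2 at the internal Rnf43 start and 3 at the internal Prom1 start. Over whole windows of 300 bases, Lrig1 had 35 CpG, Axin2 31, Ephb2 24, Ephb3 23 and Lgr4 18. The windows near the 5′ starts of Rnf43 and Prom1 had 10 each. Of all 32851 RefSeq windows, the 8159 that lay wholly under wt H3K4me3 had a median of 25 CpG, and the 21676 with no wt H3K4me3 a median of 4. The Tcf motifs CTTTGAT and CTTTGAA, searched on both strands, were in 0 of the 9 windows, and 3.73% and 5.14% of all windows held them. These windows are short, and the absence of these letters says nothing of Tcf binding elsewhere.

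The 10 genes fell into 2 classes that were the same in both conditions. H3K4me3 alone marked Lgr4, Axin2, Rnf43, Znrf3, Lrig1, Prom1, Ephb2 and Ephb3. H3K27me3 alone marked Lgr5 and Smoc2. No gene of the 10 carried both marks, and none changed class with TNFα. H3K4me3 was thus present at 8 of 10 genes in each condition, where 50.5% of protein-coding genes had it in wt and 51.2% in wt+TNFα. H3K27me3 was present at 2 of 10, where the share was 21.7% in wt and 29.5% in wt+TNFα. H3K4me3 alone in both conditions was the state of 42.4% of protein-coding genes, and H3K27me3 alone of 15.1%. Both marks were found at 5.18% in wt and 7.64% in wt+TNFα, against 0 of the 10 genes. The same marks were present in both conditions at 87.9% of protein-coding genes and at 10 of the 10.

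**Figure D1:**
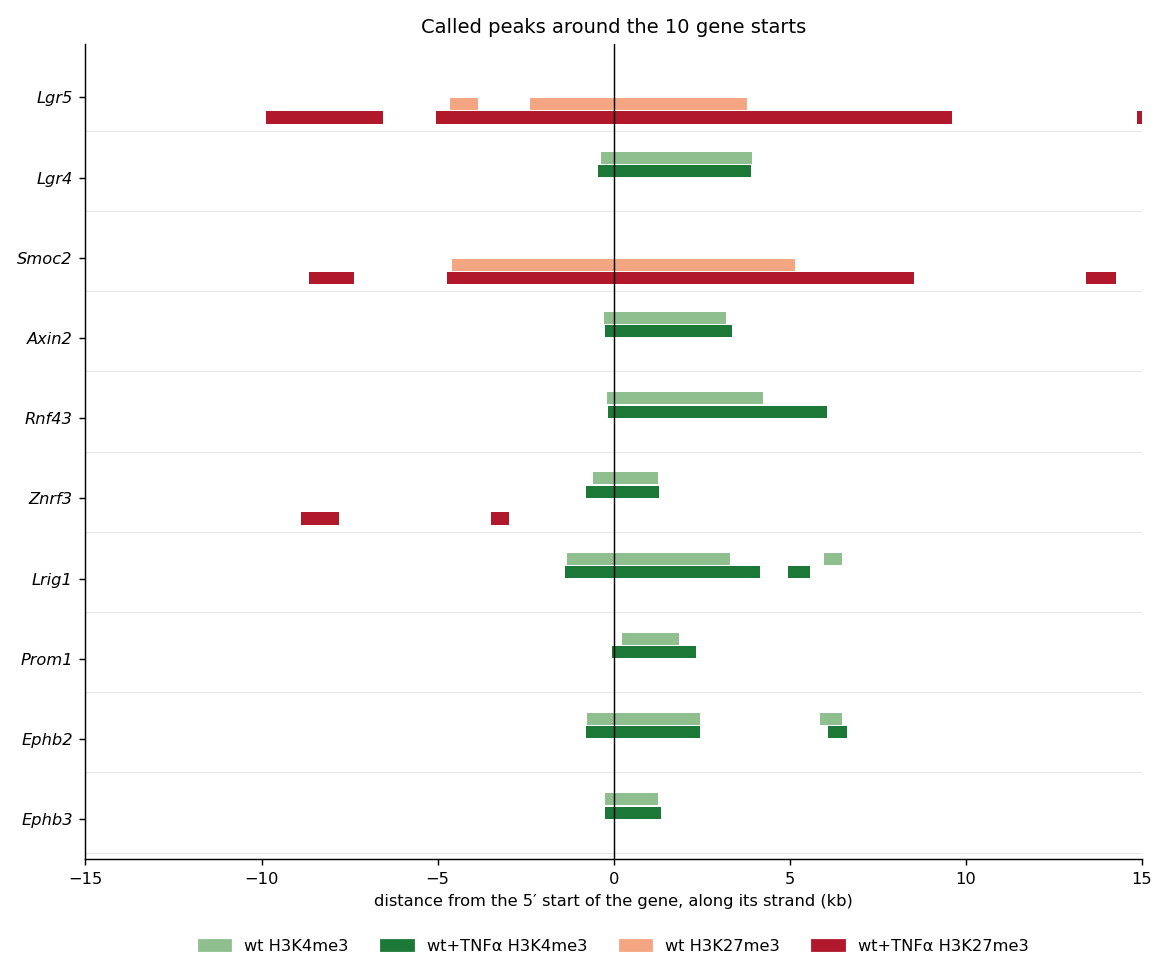
Called peaks within 15 kb of the 5′ start of each gene, with distance in kb along the gene's own strand on the x axis and 1 lane per list (light green, wt H3K4me3; dark green, wt+TNFα H3K4me3; light red, wt H3K27me3; dark red, wt+TNFα H3K27me3). H3K27me3 crosses the start only at Lgr5 and Smoc2, and H3K4me3 covers the start of the other 8 genes, except Prom1 in wt where it begins inside the gene, and reaches further into each gene than upstream of it.

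Lgr5, the R-spondin receptor that marks crypt base stem cells, lies on the minus strand of chromosome 10 (115450311 to 115587780). It had no H3K4me3 peak in either condition, and the nearest one was 71279 bp from its promoters in wt and 71168 bp in wt+TNFα. One H3K27me3 peak lay over its start in each list. In wt this peak ran from 115584010 to 115590169 (6160 bp), with a fold enrichment over the local background of 2.93 and a −log10 q of 4.56. In wt+TNFα it ran from 115578176 to 115592828 (14653 bp), with a fold enrichment of 3.13 and a −log10 q of 7.96. The wt+TNFα peak held the wt peak entirely and was 2.38 times as wide. It reached 2659 bp further upstream and 5834 bp further into the gene. The promoter at the 5′ start was covered to 100% in both lists, so the change lay outside the promoter. Each library averages all cells of the organoids, so a mark in some cells and a weaker mark in every cell cannot be told apart.

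Smoc2, a secreted matrix protein that is also a marker of the crypt base, lies on the plus strand of chromosome 17 (14279506 to 14404790). It too had no H3K4me3, and the nearest peak was 74404 bp away in wt and 74363 bp in wt+TNFα. The wt H3K27me3 peak ran from 14274915 to 14284646 (9732 bp) with a fold enrichment of 2.61 and a −log10 q of 2.52. The wt+TNFα peak ran from 14274784 to 14288031 (13248 bp) with a fold enrichment of 3.06 and a −log10 q of 7.98. It was 1.36 times as wide, and most of the added length, 3385 bp, lay inside the gene. As at Lgr5, the 5′ promoter was covered to 100% in both lists.

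Within the genes, H3K27me3 covered 2.74% of Lgr5 in wt and 17.9% in wt+TNFα, and 4.10% and 19.0% of Smoc2. In wt, the start peak was the only one inside each gene. In wt+TNFα, 5 further peaks in Lgr5 and 9 in Smoc2 added to it. Their fold enrichments reached at most 2.02 and their −log10 q at most 1.77. With peaks of −log10 q of at least 2 alone, a setting chosen after seeing the data, coverage in wt+TNFα was 6.99% for Lgr5 and 6.81% for Smoc2. More H3K27me3 in the gene was common in wt+TNFα: it was found at 78.8% of the 3315 protein-coding genes with H3K27me3 alone in both conditions. The median coverage of these genes was 28.4% in wt and 63.3% in wt+TNFα, and the median change per gene was 14.2 percentage points, against 15.2 at Lgr5 and 14.9 at Smoc2. H3K27me3 at the promoter was wider in wt+TNFα at 2 of 2 of these genes, where 87.4% of the 4486 protein-coding genes with a peak in both conditions were wider. The median ratio over all 4486, narrowed ones included, was 1.81.

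**Figure D2:**
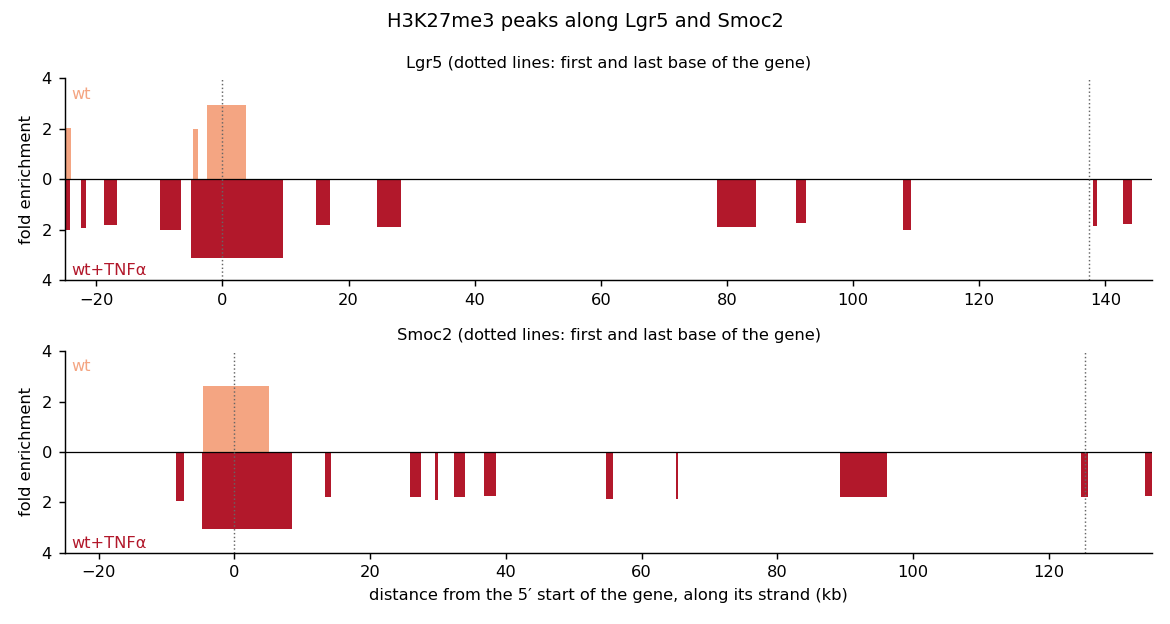
H3K27me3 peaks along Lgr5 and Smoc2, with distance from the 5′ start in kb on the x axis and the fold enrichment of each peak as bar height, wt upward and wt+TNFα downward. Fold enrichments were computed separately for each library. The peak at the start is the tallest in both genes and both conditions, at 2.93 and 3.13 for Lgr5 and 2.61 and 3.06 for Smoc2, and the peaks further inside appear only in wt+TNFα.

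Lgr4 is the relative of Lgr5 that is expressed more widely in the epithelium, and its state was the opposite one. On the plus strand of chromosome 2 (109917647 to 110014257), it carried an H3K4me3 peak from 109917276 to 109921562 (4287 bp) in wt and from 109917196 to 109921530 (4335 bp) in wt+TNFα. The fold enrichments of 59.7 and 64.6 were higher than those of 99.4% and 99.9% of protein-coding genes with H3K4me3 in the same list. The upstream edge lay 80 bp further out in wt+TNFα and the downstream edge 32 bp further in, so the width ratio was 1.01. The nearest H3K27me3 peak was 93283 bp away in wt and 134424 bp in wt+TNFα. Lgr4 and Lgr5, which bind the same ligands, thus had no mark in common at their promoters.

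Among the feedback genes, Axin2 on the plus strand of chromosome 11 (108920349 to 108950783) had an H3K4me3 peak of 3448 bp in wt (108920076 to 108923523) and of 3606 bp in wt+TNFα (108920100 to 108923705). Its fold enrichment was 33.6 in wt and 47.5 in wt+TNFα, above those of 66.2% and 92.6% of the marked protein-coding genes in the same list. The peak gained 182 bp at its downstream edge and lost 24 bp upstream. It spanned 5 of the 7 annotated starts of Axin2 in both conditions. In wt, 1358 of the 3175 bp of the peak inside the gene were exonic and 236 coding.

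Rnf43, on the plus strand of the same chromosome (87662722 to 87735539), had the largest change in H3K4me3 width in bp among the 10 genes. The peak measured 4434 bp in wt (87662531 to 87666964) and 6235 bp in wt+TNFα (87662545 to 87668779), a ratio of 1.41 that exceeded that of 94.2% of protein-coding genes. The added 1815 bp lay at the downstream edge, in an intron, because the exonic length under the peak was 2146 bp in both conditions. The highest point of the peak lay 238 bp inside the gene in wt and 1896 bp inside in wt+TNFα, and the fold enrichment was 22.6 and 34.5. The added bases lay beyond the promoters as defined here, so the promoter itself gained 0 bp and lost 14 bp at its upstream edge. The 4 starts at the 5′ end were marked and the other 4 of the 8 starts were not, the internal start printed above among them.

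Znrf3, the partner of Rnf43, lies on the minus strand of chromosome 11 (5276324 to 5444847). Its H3K4me3 peak was 1844 bp wide in wt (5443588 to 5445431) and 2093 bp in wt+TNFα (5443551 to 5445643), a ratio of 1.14. The extension of 212 bp lay upstream, and the fold enrichment was 33.3 and 39.9. H3K27me3 was 115739 bp away in wt. In wt+TNFα, 3 H3K27me3 peaks of 515, 1083 and 2740 bp lay 2966, 7802 and 19885 bp upstream of the gene, with fold enrichments of 1.75 to 1.91 and −log10 q of 0.853 to 1.66. They did not reach the promoter.

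Lrig1 is a membrane protein that restrains ErbB signalling and marks a crypt stem cell population. On the minus strand of chromosome 6 (94604529 to 94700158), it had the widest wt H3K4me3 peak of the 10 genes, 4617 bp (94696865 to 94701481), with 5539 bp in wt+TNFα (94696009 to 94701547). The extension of 856 bp lay at the downstream edge and that of 66 bp upstream. Fold enrichment was 56.3 in wt and 66.0 in wt+TNFα, above 98.5% and 99.9% of marked genes. The 5′ promoter was covered to 100% in both conditions, so no promoter base was gained or lost. A small internal H3K4me3 peak lay 5975 bp inside the gene in wt (510 bp, fold enrichment 6.41) and another 4941 bp inside in wt+TNFα (644 bp, 4.86), and these did not overlap.

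Prom1 encodes CD133, a protein of membrane protrusions that is expressed in crypt stem and progenitor cells. It lies on the minus strand of chromosome 5 (43993620 to 44102032), and its H3K4me3 peak differed most between the conditions in relative terms. In wt the peak was 1609 bp wide (44100176 to 44101784) and lay wholly inside the gene, with a fold enrichment of 15.8. In wt+TNFα it was 2376 bp wide (44099702 to 44102077) and crossed the 5′ start, with a fold enrichment of 32.6. The width ratio was 1.48, larger than at 95.5% of protein-coding genes, and the fold enrichment ratio 2.06. The peak grew by 293 bp upstream and by 474 bp downstream, and all 767 bp fell within promoters. The share of the 5′ promoter under the peak was 37.6% in wt and 52.3% in wt+TNFα. Among marked protein-coding genes, its fold enrichment was above 18.2% in wt and above 58.3% in wt+TNFα. The 7 marked starts of the 15 were the same in both conditions and all lay within 2846 bp of the 5′ end. At those 2807, 2840 and 2846 bp inside, only 0.550% to 2.50% of the promoter was covered in wt. In wt+TNFα, 24.2% to 26.2% was. In wt+TNFα the nearest H3K27me3 peak was 156291 bp away, while wt had a weak peak of 764 bp inside the gene (fold enrichment 2.02, −log10 q 0.465), 5750 bp from the nearest promoter.

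Ephb2 and Ephb3 are receptors for B-type ephrins that position cells along the crypt and are known Wnt targets. Ephb2, on the minus strand of chromosome 4 (136647539 to 136835988), had H3K4me3 over 3190 bp in wt (136833545 to 136836734) and 3242 bp in wt+TNFα (136833534 to 136836775), with fold enrichments of 51.8 and 55.2. Ephb3, on the plus strand of chromosome 16 (21204755 to 21223305), had 1518 bp in wt (21204507 to 21206024) and 1582 bp in wt+TNFα (21204503 to 21206084), with fold enrichments of 31.1 and 30.7. Their edges moved by 4 to 60 bp, and the width ratios were 1.02 and 1.04. Ephb2 also had a small internal H3K4me3 peak 5844 bp inside the gene in wt (635 bp, fold enrichment 5.61). In wt+TNFα one lay 6071 bp inside (543 bp, 5.57), and these overlapped. Ephb3 was the only one of the 8 marked genes whose fold enrichment was not higher in wt+TNFα. Beyond the promoters, H3K27me3 lay downstream of both genes and, in wt+TNFα, also upstream of Ephb2. Behind Ephb2, a peak of 8060 bp in wt (fold enrichment 3.92) lay 6634 bp past the gene, and one of 20424 bp in wt+TNFα (fold enrichment 3.21) lay 4923 bp past it. The promoter of Lactbl1 was reached in both conditions, in wt by a separate peak of 1309 bp. In wt+TNFα, a peak of 809 bp also lay 1279 bp past Ephb2 (−log10 q 2.09), and peaks of 876 and 7287 bp lay 19432 and 23230 bp upstream of it (−log10 q 1.32 and 2.31). Behind Ephb3, the nearest peaks were 1269 bp wide in wt and 3325 bp in wt+TNFα, 6181 and 6580 bp past the gene.

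**Figure D3:**
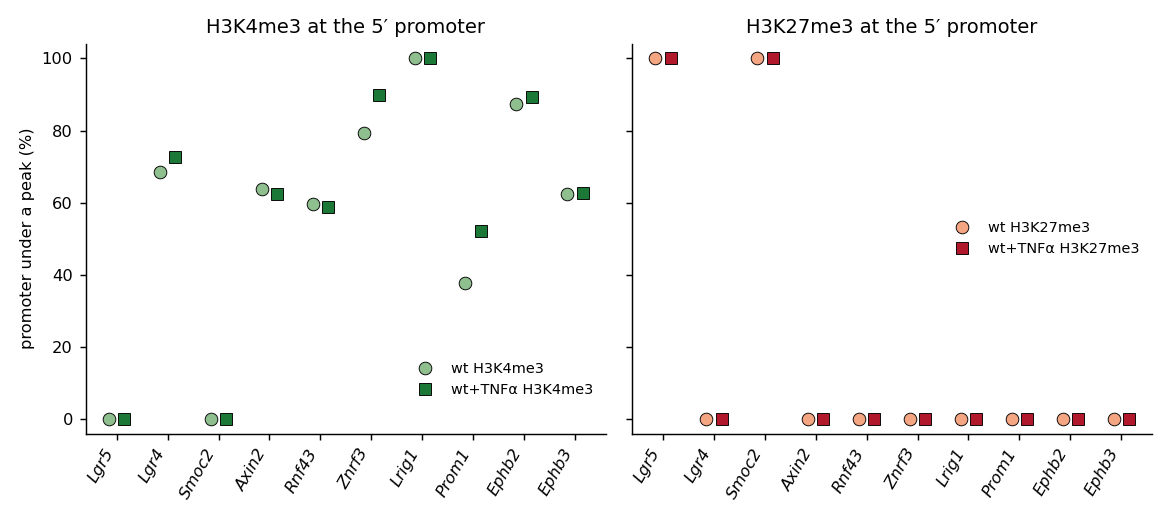
Percent of the promoter at the 5′ start (1000 bp on each side) under a peak, for each of the 10 genes, with H3K4me3 in the left panel and H3K27me3 in the right (circles, wt; squares, wt+TNFα; 1 library each). Lgr5 and Smoc2 sit at 0 for H3K4me3 and at 100% for H3K27me3, the other 8 sit at 0 for H3K27me3, and the largest rises in H3K4me3 are at Prom1 (37.6% to 52.3%) and Znrf3 (79.2% to 89.8%).

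Across the 8 genes with H3K4me3, the peak was wider in wt+TNFα at 8 of 8, where 75.8% of the 10903 protein-coding genes with a peak in both conditions were wider. The median width of the 8 was 3319 bp in wt and 3424 bp in wt+TNFα, against 1599 and 1731 bp for all. The median ratio was 1.09 against 1.07 for all, whose middle range ran from 1.00 to 1.15. Only Rnf43, Prom1 and Lrig1 lay above that range, and Lgr4, Axin2, Znrf3, Ephb2 and Ephb3 lay within it. The fold enrichment was higher in wt+TNFα at 7 of 8, and at 60.3% of all, but fold enrichments were computed within each library and need not share a scale. By the reporting summary, the wt+TNFα H3K4me3 and input libraries had more reads than those of wt, and the part of depth in these widths was not tested.

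By base, H3K4me3 at the promoter was gained at 6 of the 10 genes, by 767 bp at Prom1, 212 at Znrf3, 182 at Axin2, 80 at Lgr4, 41 at Ephb2 and 4 at Ephb3. It was lost at 2, by 24 bp at Axin2 and 14 at Rnf43. Over protein-coding genes, 40.9% gained and 21.1% lost at least 1 bp. When at least 200 bp were required, 2 of the 10 genes gained, Prom1 and Znrf3, and 0 lost, against 10.7% and 2.49% of protein-coding genes. H3K27me3 was gained at 0 and lost at 0 of the 10 genes, where 20.6% and 5.22% of protein-coding genes gained and lost it. At Lgr5 and Smoc2 the 5′ promoter was already covered whole in wt, so no gain was possible there, whereas their internal starts had no H3K27me3 in either list. Over all promoters, 36.4% of the bases of Lgr5 and 35.1% of those of Smoc2 were covered in both.

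**Figure D4:**
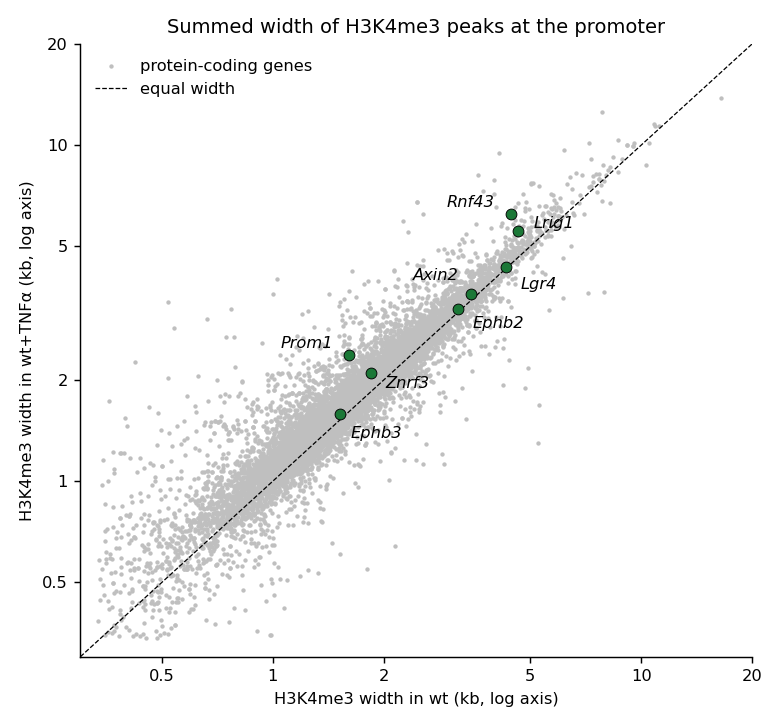
Summed width of the H3K4me3 peaks that touch a promoter, wt on the x axis and wt+TNFα on the y axis (kb, log axes), for 10903 protein-coding genes (grey) and the 8 genes with H3K4me3 (green), with a dashed line at equal width. All 8 lie above the line, with Prom1 and Rnf43 furthest from it at ratios of 1.48 and 1.41.

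Among annotated starts, those with a mark lay at and near the 5′ end. Every marked start was within 2846 bp of the 5′ start of its gene, and the nearest unmarked one was 5769 bp away, in Ephb3. The 10 genes have 67 distinct starts, of which 26 had H3K4me3 and 8 had H3K27me3, the same numbers in both conditions. At Lgr4, Znrf3 and Ephb3 only 1 start was marked, the 5′ one, of 3, 2 and 6. At Lgr5 and Smoc2, 4 starts each had H3K27me3, of 6 and 7. H3K27me3 within 25000 bp of the gene was found at 5 of the 8 genes with H3K4me3 alone in each condition. These were Axin2, Rnf43, Ephb2 and Ephb3 in both, with Prom1 in wt and Znrf3 in wt+TNFα. The share over protein-coding genes with H3K4me3 alone was 47.2% in wt and 64.3% in wt+TNFα.

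Of 51 further Wnt and crypt genes in 4 lists, 48 had the same marks in both conditions, where the share over protein-coding genes was 87.9%. H3K4me3 alone in both was found at 29 (42.4% of protein-coding genes), H3K27me3 alone at 14 (15.1%), both marks at 4 and neither at 1. Among the signal transducers, 14 of 14 had H3K4me3 in each condition, against 50.5% and 51.2% of protein-coding genes. They include Ctnnb1, which encodes β-catenin, and the receptors Lrp5 and Lrp6. Tcf7l1, a Tcf factor that mainly represses, also had H3K27me3, and its H3K4me3 was 2241 bp wide in wt and 1542 bp in wt+TNFα.

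Of 16 paralogues and ligands of the 10 genes, 8 had H3K27me3 alone in both conditions. These were the 4 R-spondins (Rspo1, Rspo2, Rspo3 and Rspo4), the third Lgr receptor Lgr6, and Smoc1, Prom2 and Ephb1. The peak at Lgr6 was 15354 bp wide in wt and 76671 bp in wt+TNFα, yet of its promoters 100% was under the wt peak and 33.3% under that of wt+TNFα. Ephb6 carried both marks in both conditions. Efnb1, a ligand of the Ephb receptors, was the one gene of this list to change class, from H3K4me3 alone to both marks. In wt+TNFα, 158 bp of its promoter lay under an H3K27me3 peak. The −log10 q of that peak was 1.49, where the median of the list was 1.34. Efnb1 lies on chromosome X, of which H3K27me3 took up 0.597 Mb in the wt list and 74.7 Mb in the wt+TNFα list. The labels do not give the sex of the animals. A difference of sex or of animal between the cultures cannot be told apart from one of treatment, here or at the 10 autosomal genes.

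Of 8 other Wnt targets, 4 had H3K27me3 alone in both conditions. Notum, a secreted enzyme that inactivates Wnt ligands, had a peak of 7086 bp in wt and 14185 bp in wt+TNFα. Nkd2, an inhibitor that acts on Dishevelled, had 9017 and 34753 bp. The transcription factors Sp5 and Lef1 had 13951 and 17881 bp, and 20769 and 40390 bp. Nkd1, the relative of Nkd2, had both marks in wt and H3K27me3 alone in wt+TNFα. Its wt H3K4me3 peak of 374 bp was weak, with a −log10 q of 13.0 against a median of 161 in that list. Its H3K27me3 was 7101 bp wide in wt. In wt+TNFα, separate peaks of 17819 and 6848 bp summed to 24667 bp. Among these Wnt inhibitors, Axin2, Rnf43 and Znrf3 thus had H3K4me3 alone, and Notum and Nkd2 had H3K27me3 alone.

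Of 13 other crypt base genes, 8 had H3K4me3 alone in both conditions. With Ascl2 and Bmi1, which also had H3K27me3, 10 genes had H3K4me3, and its peaks were wider in wt+TNFα at 10 of 10, with a median ratio of 1.17, against 75.8% and 1.07 over protein-coding genes. The widest relative changes were at Cd44, a surface receptor for hyaluronan, from 746 to 2693 bp, and at Hopx, a homeodomain protein, from 992 to 2073 bp. These 2 were named after their values were seen. Msi1 and Tnfrsf19 had H3K27me3 alone in both conditions, as Lgr5 and Smoc2 did. Olfm4, a secreted glycoprotein of the crypt base, had neither mark in wt and an H3K27me3 peak of 25938 bp in wt+TNFα (fold enrichment 2.73, −log10 q 5.22). The paper reports that TNFα induced Olfm4 RNA, and RNA was not analysed here. Ascl2, a Wnt-responsive transcription factor of stem cells, and Bmi1, a Polycomb subunit, had both marks in both conditions. At these promoters H3K27me3 was less wide in wt+TNFα, at 1565 bp against 4282 bp for Ascl2 and 1294 bp against 3477 bp for Bmi1. It was wider at Msi1 (18745 bp in wt, 86879 bp in wt+TNFα) and Tnfrsf19 (11136 and 54086 bp), as at Lgr5 and Smoc2. The other genes with both marks in both conditions were also wider, Ephb6 with 1976 and 5630 bp and Tcf7l1 with 12737 and 25594 bp. The H3K27me3 peak of Ascl2 had a −log10 q of 1.88 in wt, above the median of 0.779 in that list. In wt+TNFα it had 0.958, below the median of 1.34.

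**Figure D5:**
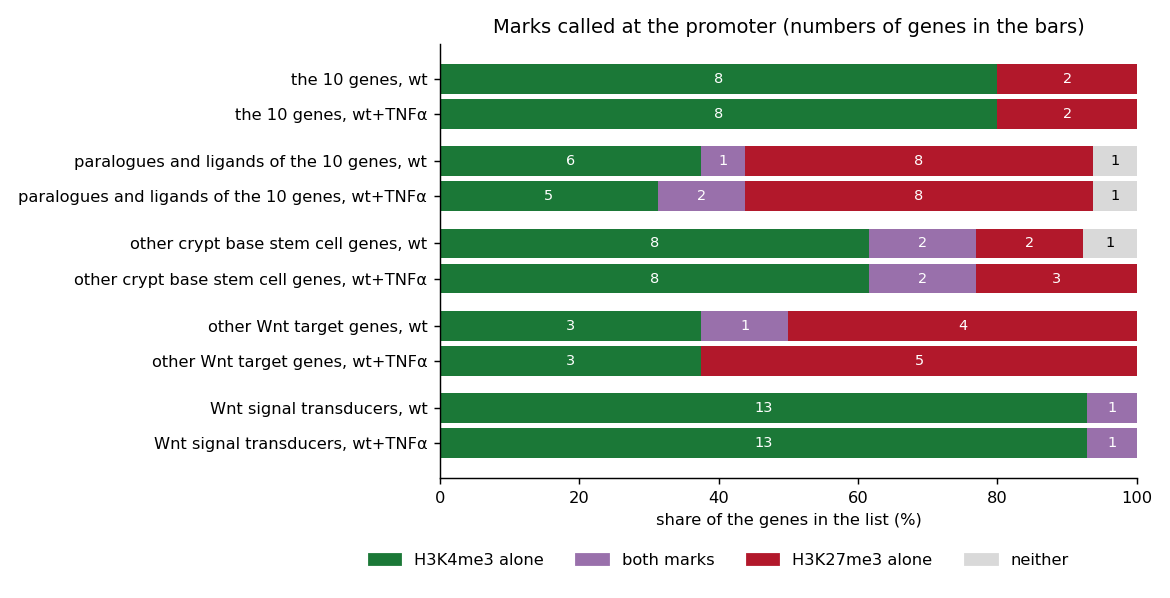
Share of genes (x axis, percent) in each of 4 promoter states, H3K4me3 alone, both marks, H3K27me3 alone or neither, for the 10 genes and 4 lists of related genes in wt and wt+TNFα, with the number of genes printed in each bar. The 10 genes keep 8 and 2 in both conditions, and the Wnt signal transducers stand at 13 with H3K4me3 alone and 1 with both marks.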

How the data were processed

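Peak lists of H3K4me3 and H3K27me3 from wt and wt+TNFα organoids were used (1 library per condition and mark). The reads and the inputs were not analysed here. Per the paper, fastp trimming was followed by alignment with bwa-mem (version 2.2) to GRCm38/mm10, after which the authors removed duplicates with SAMtools (version 1.11), filtered blacklisted regions and called peaks against input with MACS2 (version 2.1.0; the reporting summary names another). The intended depth per the labels was 40 M reads for H3K4me3 and input and 60 M for H3K27me3. The reads reached are known here only from the reporting summary. There, the H3K27me3 libraries of both conditions were nearly equal and above the labelled depth. In the deposited lists, the authors give each peak's fold enrichment, a ratio to the local background, and its p-value and q-value as −log10. All 3 were computed separately for each library, so they rank peaks within a list. All lists but that of wt+TNFα H3K27me3 have names that mention a spike-in, which the paper's text does not describe.

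Peaks were converted to 1-based positions, and overlaps computed in Python 3.11.15. Gained and lost bases were those of one list not under the other, checked against bedtools subtract (version 2.31.1), with 0 of 40 comparisons different. On simulated lists, 100% of 400 genes with planted peaks were recovered. Gene and protein-coding background came from GENCODE M21, counted by symbol. A peak width is the sum over merged peaks that touch a promoter, and percentiles refer to protein-coding genes with such a peak. With 1 library per group, no test was made. All 10 genes are named, and from the 4 related lists those with H3K27me3 in both conditions or with a mark that differed, besides a few as examples. No measured value entered the rule for the 10 genes, but the genes, lists and comparisons were chosen with earlier results of these data known.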

Additional observations from a re-analysis of the deposited data

How the results depend on the processing

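The number of genes with each mark was unchanged under alternative promoters (500 or 2000 bp on each side, 1000 bp upstream to the start, or 1 start per gene), an overlap of 200 bp, equal numbers of peaks, and, for H3K27me3, a minimum −log10 q of 2. When each list kept only its peaks above the median −log10 q, H3K4me3 was found at 6 of 10 genes in wt and 8 in wt+TNFα, because the wt peaks of Rnf43 and Prom1 fell below the median. Loss by base was then found at 1 gene. With at least 200 bp required, gains were found at 2 genes and losses at 0. With whole peaks subtracted, gains and losses were both 0. The median covered percent of all promoters of the 10 genes, 21.8% for wt and 22.4% for wt+TNFα H3K4me3, became 24.7% and 26.0% for 500 bp, 19.3% and 19.7% for 2000 bp, 16.4% and 17.7% upstream alone, and 63.0% and 62.5% with 1 start per gene, where wt was the higher. It was 16.6% in wt with the stronger peaks. Of 64 alternative counts of genes, 59 were within 1.5 times the reported one, and H3K4me3 was gained at 4 to 7 genes except with 200 bp required or whole peaks subtracted. With −log10 q of at least 2, chosen after seeing the data, H3K27me3 covered 6.99% of Lgr5 and 6.81% of Smoc2 in wt+TNFα. Over all gene types, the background shares were lower, with H3K4me3 at 24.3% (wt) and 24.7% (wt+TNFα), H3K27me3 at 14.2% and 23.2%, 19.4% gaining and 9.95% losing H3K4me3 and 17.1% and 3.39% H3K27me3. Over autosomal protein-coding genes, H3K27me3 was at 22.3% in wt and 27.5% in wt+TNFα and gained at 18.2%, and H3K4me3 was at 51.8% and 52.5% and gained at 42.0%. No paired analysis was possible because each group had 1 library and the labels carry no replicate numbers.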
